A study of Mus musculus with 45 samples.

Results

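MHCII+ macrophages of injured muscle were compared between Foxp3.DTR+ mice and Foxp3.DTR- mice on 6 arrays, 2 from DTR+ mice and 4 from DTR- mice, out of 45 arrays in the series. The arrays were chosen by their titles, which give the day, the 24 h of DT and the MHCII+ macrophage gate. All 19752 genes with a probe set of a single symbol were followed, and the 11074 whose mean reached the median of all values (log2 7.57) in at least 1 of the 18 groups of the series were tested. A tested gene can therefore be dim in these 6 arrays.

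All 6 samples came from male C57Bl6 mice aged 8 weeks whose muscle had been injured with cardiotoxin, a snake toxin that destroys muscle fibres. The cells were sorted into TriZol as Ly6g- CD11b+ cells positive for the macrophage antigen encoded by Adgre1, and the labels list no SiglecF step for them. Foxp3.DTR places a diphtheria toxin receptor under the Foxp3 promoter, so that diphtheria toxin (DT) removes cells that express Foxp3, the regulatory T cells (Treg cells). DTR- mice lack this receptor. The labels do not say from which moment the 24 h are counted, nor that each sample came from its own animal. The p-values therefore measure a spread between samples, pooled over all 45 arrays, not one known to lie between animals.

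At day 7, 3 other pairs of groups of male C57Bl6 mice with the same injury stood beside these. They were the MHCII- macrophages of the same 24 h set (3 DTR+ and 3 DTR- samples, age 8 weeks), MHCII+ macrophages of a set with 8 h of DT (3 DTR+ and 3 DTR-, age 12 weeks, gate also SiglecF-), and MHCII+ macrophages with no DT time in their titles (2 DTR+ and 2 DTR-, age 10 weeks), called untimed here. DT time, age and, for the 8 h set, the gate cannot be told apart between these sets.

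Macrophages that carry MHCII present peptides to CD4 T cells, and interferon gamma (IFN-g) is one of the main signals that T cells and natural killer cells send back to them. Signals from its receptor raise Irf1, the guanylate-binding proteins (GBPs), the immunity-related GTPases (IRGs) and, as a brake, Socs1. Treg cells restrain the T cells that make this cytokine, and the title of the series names their control of IFN-g as its subject. In sorted bulk samples, fewer cells of a type and less RNA per cell cannot be told apart.

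The labels' marker entry reads MHCII- for these 6 arrays, against their titles, so class II genes were used as a check. H2-Ab1, a class II chain, lay at log2 intensity 13.93 and 13.94 in the DTR+ arrays and at 13.83 to 14 in the DTR- arrays. In the arrays titled MHCII- it lay at 12.32 to 12.45 in DTR+ and at 12.12 to 12.19 in DTR- samples, which goes with the titles. Adgre1, the macrophage gene of the gate, lay at 12.75 and 12.91 in DTR+ arrays and at 12.73 to 12.94 in DTR- arrays. The 2 DTR+ arrays correlated at 0.976 across genes, the DTR- arrays at 0.962 to 0.986, and pairs of 1 DTR+ and 1 DTR- array at 0.955 to 0.993. The arrays carry no probe for the transgene, so the genotype was not checked. Foxp3 lay at 7.07 and 7.13 in DTR+ arrays and at 6.98 to 7.64 in DTR- arrays, too dim for a test.

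At 24 h, 6 genes rose in DTR+ MHCII+ macrophages and none fell, out of 11074 tested (0.0542% called; limma, adjusted p under 0.05). They were Batf2, Ccl17, Gbp2b, Iigp1, Socs1 and Dusp10. Before adjustment, 566 genes were higher (5.11%) and 150 were lower (1.35%) at a p under 0.05. Both DTR+ arrays lay above all 4 DTR- arrays for 644 genes (5.82%) and below all 4 for 157 (1.42%). The median difference over all tested genes was 0.04 on the log2 scale, on which all differences are given (DTR+ minus DTR-, ± SE).

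Batf2, a leucine-zipper transcription factor of the interferon response, had the smallest p. Its log2 intensity was 9.10 and 9.11 in the DTR+ arrays, against 8.29, 8.34, 8.43 and 8.2 in the DTR- arrays. The DTR+ arrays lay together, clear of the DTR- arrays by more than the range of either group. The difference was 0.79 ± 0.11 (adjusted p = 0.00052).

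Ccl17, a chemokine that draws cells bearing Ccr4, among them many Treg cells and type 2 helper T cells, showed the largest difference of the 6. It read 11.46 and 10.40 in the DTR+ arrays, against 9.49, 9.55, 9.51 and 9.20 in the DTR- arrays. Both DTR+ values were above every DTR- value, but they lay far apart from each other, with replicate 1 the higher. The difference was 1.49 ± 0.26 (adjusted p = 0.0097). Ccl22, the other ligand of Ccr4, read 9.0 and 8.44 in DTR+ arrays, against 8.00, 8.54, 8.11 and 8.59 in DTR- arrays. These values overlapped and the gene did not pass (0.41, adjusted p = 0.76).

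Gbp2b encodes a guanylate-binding protein that attacks the vacuoles of intracellular pathogens. It read 9.55 and 8.64 in DTR+ arrays, against 8.04, 7.77, 7.57 and 8.37 in DTR- arrays, a difference of 1.16 ± 0.22 (adjusted p = 0.023). The lower DTR+ array stood only a little above the highest DTR- array. Iigp1, an IRG that acts on the same vacuoles, read 10.54 and 10.18 in DTR+ arrays, against 8.83, 9.23, 8.49 and 9.04 in DTR- arrays. Its groups were well separated, with a difference of 1.46 ± 0.30 (adjusted p = 0.045).

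Socs1 inhibits Jak kinases and shuts down signalling from the IFN-g receptor. It read 9.71 and 9.24 in DTR+ arrays, against 8.90, 8.90, 8.96 and 8.93 in DTR- arrays, a difference of 0.55 ± 0.11 (adjusted p = 0.045). The 4 DTR- arrays were almost identical, and the DTR+ arrays were spread more widely. Dusp10, a phosphatase that switches off the p38 and Jnk kinases, read 9.76 and 9.87 in DTR+ arrays, against 8.92, 9.37, 9.06 and 9.51 in DTR- arrays. Here the DTR- arrays were the more spread, and the difference was 0.60 ± 0.12 (adjusted p = 0.045).

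**Figure D1:**
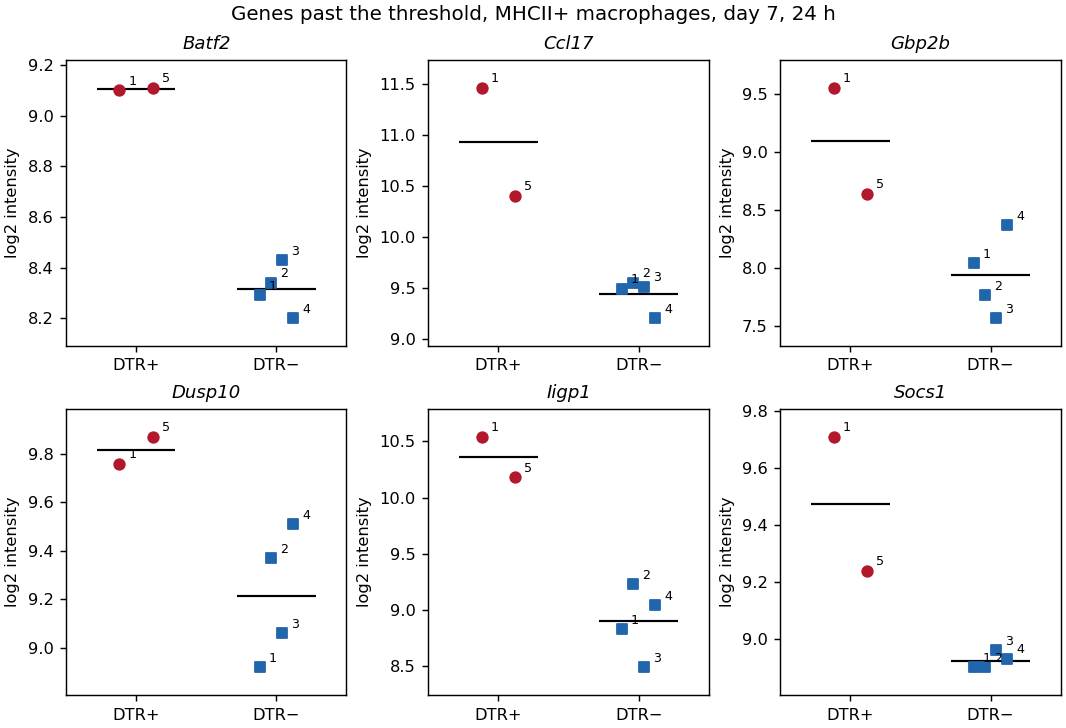
Log2 intensity (vertical axis of each panel, each with its own scale) of the 6 genes past the threshold in each MHCII+ array at day 7, 24 h, with DTR+ left of DTR-, replicate numbers beside the points and group means as lines. Both DTR+ arrays lie above all 4 DTR- arrays in each panel, and replicate 1 is the higher DTR+ array for Ccl17, Gbp2b, Iigp1 and Socs1.

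These calls rest on a spread shared by all 45 arrays, while the 24 h set varied more than the others: its residual SD was 0.24, against 0.10 in the untimed day 7 set and 0.19 over all arrays. With a spread of its own for each set, 0 genes passed, and limma's adjusted p was 0.10 for Batf2, 0.39 for Ccl17 and Gbp2b, and 1 for the other 3. None passed either in fits of the 6 arrays compared or of the 12 arrays of the 24 h set alone, or without DTR+ replicate 1. Leaving out that array moved Ccl17 to 0.96, Gbp2b to 0.70 and Socs1 to 0.32, while Batf2 stayed at 0.79. Without DTR- replicate 1 the call held for Batf2, Ccl17 and Gbp2b, and without DTR- replicate 3 for Batf2 and Ccl17. With 2 against 4 arrays, an exact permutation test of 1 gene cannot give a one-sided p below 0.067.

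**Figure D2:**
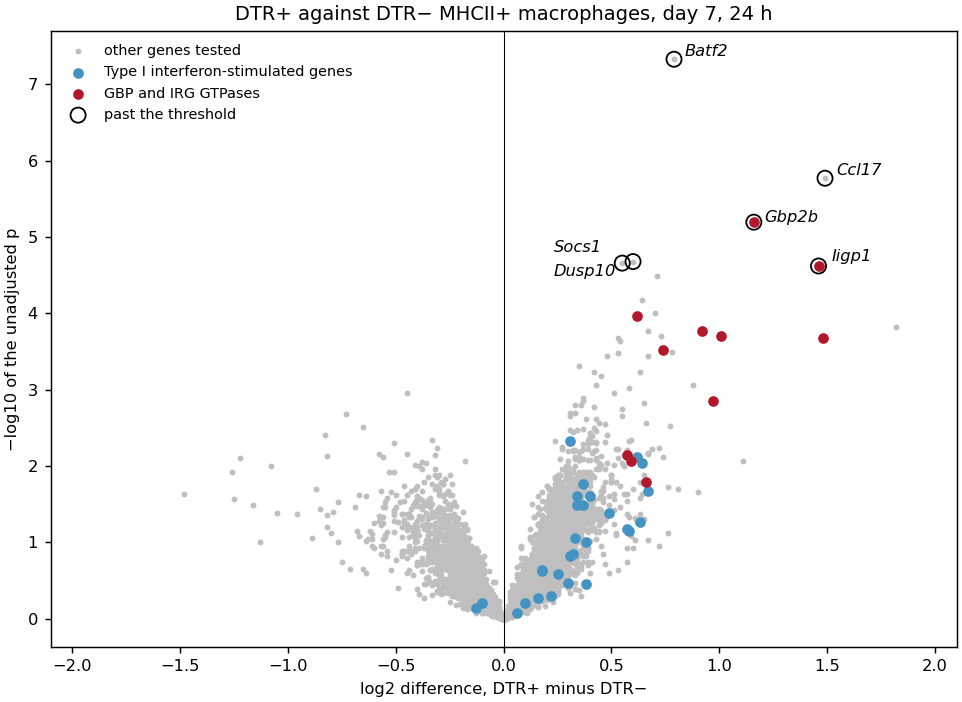
Log2 difference between DTR+ and DTR- MHCII+ arrays at 24 h (horizontal axis) against -log10 of the unadjusted p (vertical axis) for 11074 genes, with GBP and IRG genes, type I interferon-stimulated genes and the 6 genes past the threshold marked. The 11 GBP and IRG genes all lie to the right of 0, and so do 26 of the 28 type I interferon-stimulated genes and 59.4% of all genes.

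The GBPs and IRGs are cytosolic GTPases that IFN-g induces and that disrupt the membranes around bacteria and parasites inside the cell. Of 21 listed, 12 had a probe set with a single symbol, and 11 of those passed the brightness filter. Of the 11, 2 rose (0.0542% of all genes did) and 9 did not pass. All 11 lay above 0, against 59.4% of all genes tested, and in all 11 both DTR+ arrays lay above all 4 DTR- arrays, against 5.82% of all genes. Their median difference was 0.92, and the lowest was 0.57. Without each of the 6 arrays all 11 stayed above 0, with medians of 0.70 to 1.11. They also did so with 50 added to the intensities (median 0.88), quantile normalization (0.84), array quality weights (0.79) and a replicate block (0.86). A change of filter, trend or other arrays fitted cannot move these differences. None of the 11 passed with quantile normalization, centred arrays, array quality weights, a spread for each set, or fits of 6 or 12 arrays.

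Gbp4 showed the widest gap of those that did not pass, with 10.20 and 9.99 in DTR+ arrays, against 8.62, 8.48, 8.44 and 8.94 in DTR- arrays (1.48 ± 0.36, adjusted p = 0.14). Gbp5, which promotes inflammasome activation, read 9.43 and 8.77 in DTR+ arrays, against 8.21, 8.06, 7.93 and 8.16 in DTR- arrays (1.01 ± 0.24, adjusted p = 0.14). Irgm1, a regulator of other IRGs, read 11.60 and 11.51 in DTR+ arrays, against 11.02, 10.86, 10.88 and 10.52 in DTR- arrays (0.74 ± 0.18, adjusted p = 0.17). In each of these 3 the DTR+ arrays lay clear of the DTR- arrays. Gbp7 differed by 0.92 (adjusted p = 0.14), Gbp11 by 0.62 (adjusted p = 0.12) and Gm4951 by 0.97 (adjusted p = 0.46). The smallest adjusted p among Gbp9 (0.66), Gbp8 (0.59) and Gbp3 (0.57) was 0.74. The list's mean level was 9.68 and 9.36 in DTR+ arrays, against 8.68, 8.72, 8.51 and 8.72 in DTR- arrays, so the groups did not overlap. GBPs are near copies of one another, and probes that fit several members could mix their signals. Gbp2, Igtp, Irgm2 and Ifi47 were left out because their probe sets carry more than 1 symbol.

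The promoters of 3 of the genes that rose are shown because they hold letters known to bind factors of the interferon response. The 250 bases before the start of transcription were read from RefSeq (GRCm38.p6) and searched on both strands for 2 copies of GAAA with any 2 bases between them, the core of the interferon-stimulated response element (ISRE), and for TTCNNNGAA, the gamma-activated sequence (GAS) of genes that respond to IFN-g. Among 32851 promoter windows of this length in the mouse table, 3.0% held the ISRE letters and 7.0% the GAS letters. For windows of the genes tested the shares were 2.7% and 5.8%. In the sequences, written 5′ to 3′ on the gene's strand, capitals mark the matches. Gbp2b (chr3:142594597-142594846, plus strand) holds 1 ISRE match, which reads on the strand opposite to the gene. Socs1 (chr16:10785537-10785786, minus strand) holds 2 ISRE matches that overlap. Ccl17 (chr8:94810203-94810452, plus strand) holds 1 GAS match.
Gbp2b: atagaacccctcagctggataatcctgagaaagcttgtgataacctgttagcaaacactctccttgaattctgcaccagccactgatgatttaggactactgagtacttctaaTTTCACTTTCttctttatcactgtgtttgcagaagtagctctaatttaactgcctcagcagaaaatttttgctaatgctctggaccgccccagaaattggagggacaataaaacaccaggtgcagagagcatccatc
Socs1: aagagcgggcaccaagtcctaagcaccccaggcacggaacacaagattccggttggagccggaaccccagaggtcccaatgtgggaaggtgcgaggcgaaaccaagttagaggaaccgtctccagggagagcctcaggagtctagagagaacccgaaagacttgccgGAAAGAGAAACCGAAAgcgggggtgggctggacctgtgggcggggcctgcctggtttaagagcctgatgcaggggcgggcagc
Ccl17: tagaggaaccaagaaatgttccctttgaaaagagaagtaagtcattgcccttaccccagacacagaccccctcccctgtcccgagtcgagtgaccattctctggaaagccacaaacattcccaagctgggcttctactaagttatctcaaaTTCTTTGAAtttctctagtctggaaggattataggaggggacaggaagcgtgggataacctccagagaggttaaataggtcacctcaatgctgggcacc

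The window of Dusp10 held no match of either kind, and Batf2 and Iigp1 had no entry. Of the 11 GTPase genes tested, 5 had an entry (Gbp2b, Gbp3, Gbp5, Gbp7 and Irgm1). All 5 held an ISRE match in at least 1 window, and 2 of them, Gbp5 and Gbp7, also a GAS match. A match describes letters only, and no binding was measured.

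**Figure D3:**
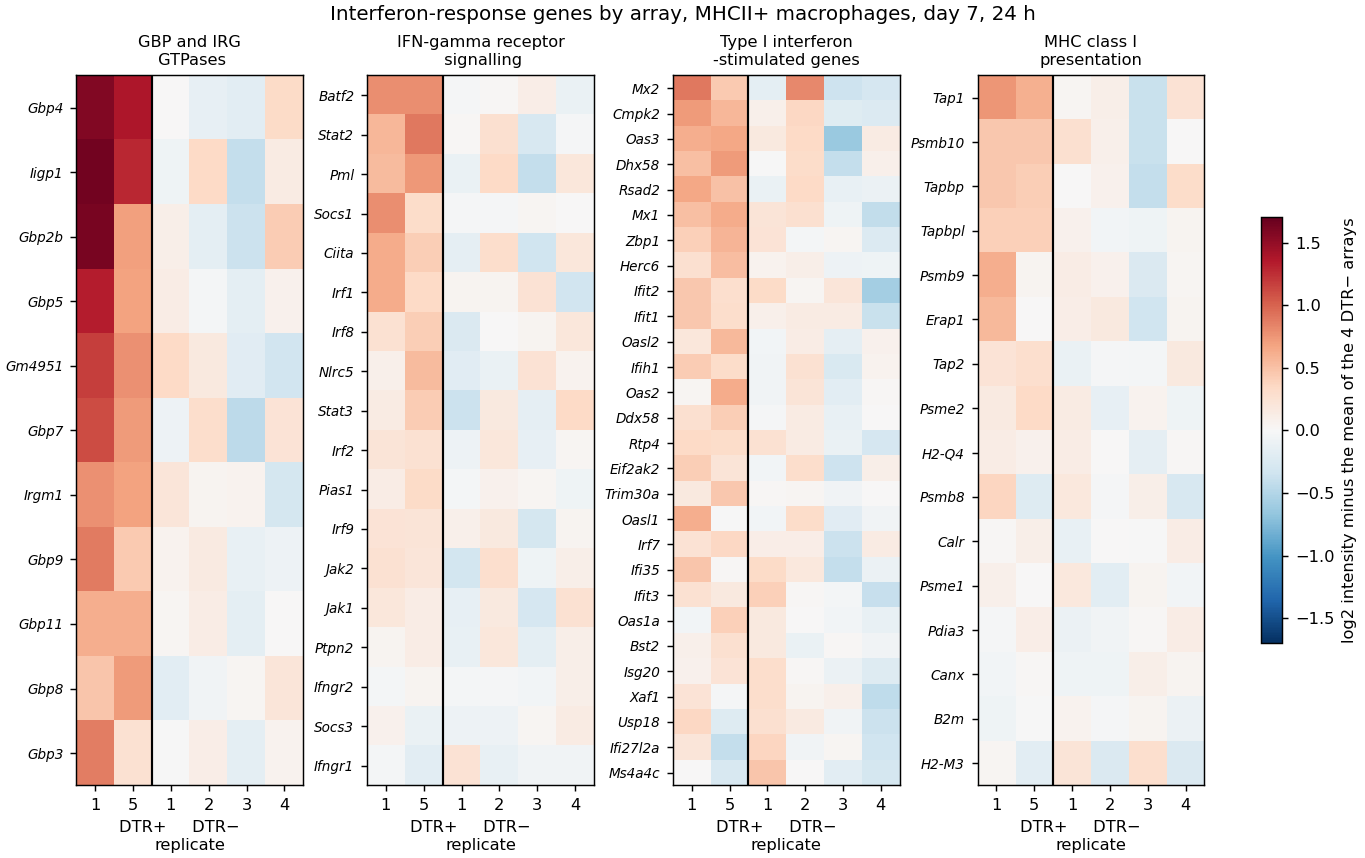
Log2 intensity in each array (columns, DTR+ replicates 1 and 5 left of DTR- replicates 1 to 4) minus the mean of the 4 DTR- arrays (colour, red above and blue below it) for the tested genes of 4 lists (rows, sorted by their difference). Both DTR+ columns are red for all 11 GTPase genes, and for several genes of the other lists, Tap1 and Stat2 among them.

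Upstream of these GTPases, 18 genes of IFN-g receptor signalling were tested. Of them, Batf2 and Socs1 rose (0.0542% of all genes did), 16 did not pass and 0 fell. In all, 16 of 18 lay above 0 (59.4% of all genes did), with a median of 0.27, and for 10 of 18 both DTR+ arrays were above all DTR- arrays (5.82% of all genes). The receptor chains Ifngr1 (-0.11, adjusted p = 0.92) and Ifngr2 (0.01, adjusted p = 0.99) had overlapping groups. Pml, the organizer of nuclear bodies, read 11.04 and 11.23 in DTR+ arrays, against 10.38, 10.83, 10.09 and 10.69 in DTR- arrays (0.64, adjusted p = 0.091). Stat2, which works with Irf9 downstream of type I interferon, read 10.61 and 10.94 in DTR+ arrays, against 10.06, 10.32, 9.77 and 10.03 in DTR- arrays (0.73, adjusted p = 0.14). In both genes the DTR+ arrays lay above the DTR- arrays without the difference passing. Irf1 differed by 0.49 (adjusted p = 0.76), Irf8 by 0.34 (adjusted p = 0.76) and Ciita, the master regulator of class II genes, by 0.52 (adjusted p = 0.74). Ifng itself was too dim for a test, at 7.04 in both DTR+ arrays and 6.86 to 7.22 in DTR- arrays.

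Of genes stimulated by type I interferon, most of them antiviral sensors and effectors, 28 were tested and none passed. Of the 28, 26 lay above 0 (59.4% of all genes did) and 10 were higher at an unadjusted p under 0.05 (5.11% of all genes), with a median of 0.33. For 14 of 28, both DTR+ arrays were above all DTR- arrays (5.82% of all genes). Trim30a, a ubiquitin ligase, read 12.32 and 12.61 in DTR+ arrays, against 12.17, 12.18, 12.09 and 12.15 in DTR- arrays (0.31, adjusted p = 0.74). Dhx58, a cofactor of the RNA sensors, differed by 0.62 (adjusted p = 0.74), Cmpk2, a nucleotide kinase of mitochondria, by 0.64 (adjusted p = 0.75) and Oasl2, an antiviral relative of the oligoadenylate synthetases, by 0.37 (adjusted p = 0.76). The mean level of the list was 10.89 and 10.85 in DTR+ arrays, against 10.38 to 10.70 in DTR- arrays, so these groups did not overlap.

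In MHC class I presentation, 0 of 16 genes passed, 13 lay above 0 (59.4% of all genes did) and the median was 0.18. The members with the smallest p were the peptide transporter Tap1 (0.67, adjusted p = 0.74), the peptide editors Tapbp (0.44, adjusted p = 0.76) and Tapbpl (0.40, adjusted p = 0.70) and the immunoproteasome subunit Psmb10 (0.45, adjusted p = 0.76). Tap1 read 11.22 and 11.08 in DTR+ arrays, against 10.51, 10.58, 10.09 and 10.72 in DTR- arrays, with no overlap. Of MHC class II genes, which the gate selects on, 0 of 11 passed and 6 lay above 0, near the 59.4% of all genes. Their median was 0.01. H2-Ab1 differed by 0.03 ± 0.13 (adjusted p = 0.99), with its DTR+ values inside the DTR- range.

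Of 25 CC and CXC chemokines, Ccl17 rose (0.0542% of all genes did) and 24 did not pass, with a median of 0.14. Cxcl9, an IFN-g-induced ligand of Cxcr3 that attracts activated T cells, read 12.24 and 12.42 in DTR+ arrays, against 11.23, 11.36, 11.55 and 11.58 in DTR- arrays (0.90, adjusted p = 0.76). Its relative Cxcl10 read 13.04 and 13.46 in DTR+ arrays, against 12.39, 12.61, 12.43 and 12.95 in DTR- arrays (0.65, adjusted p = 0.77). For both, the DTR+ arrays were the highest but the adjusted p was far from the threshold. The monocyte attractant Ccl12 differed by 1.11 (adjusted p = 0.74), with 10.20 and 11.55 in DTR+ arrays overlapping 10.04, 9.14, 9.59 and 10.31 in DTR- arrays. Cxcl1, which attracts neutrophils, read 9.67 and 9.79 in DTR+ arrays, below 10.10, 10.15, 10.22 and 10.11 in DTR- arrays (-0.41, adjusted p = 0.76).

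Among 20 costimulatory and checkpoint genes, 17 lay above 0 (59.4% of all genes did), none passed and the median was 0.22. Pdcd1lg2, which encodes the PD-1 ligand PD-L2, came nearest with an adjusted p of 0.051. It read 7.48 and 6.84 in DTR+ arrays, against 6.29, 6.29, 6.52 and 6.68 in DTR- arrays, a difference of 0.71, which was 0.39 without DTR+ replicate 1 (adjusted p = 0.41) and 1.04 without DTR+ replicate 5 (adjusted p = 0.003). All 6 readings lay under the brightness filter of 7.57, which the gene passed through another group. Cd274, the other PD-1 ligand, read 10.89 and 10.97 in DTR+ arrays, against 10.24, 10.36, 9.98 and 10.55 in DTR- arrays (0.65, adjusted p = 0.76). Cd40, the receptor for helper T cell signals, differed by 0.47 (adjusted p = 0.63) and Il15ra, which presents interleukin 15, by 0.37 (adjusted p = 0.67). Clec9a, a receptor for dead cells known from cross-presenting dendritic cells, read 8.55 and 8.2 in DTR+ arrays, against 7.35, 8.12, 7.46 and 7.45 in DTR- arrays (0.78, adjusted p = 0.17). Of the 9 dendritic cell genes tested, Clec9a among them, 3 lay above 0 (59.4% of all genes did), with a median of -0.16.

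In other activation programs no gene outside Dusp10 and Socs1 passed. None of 28 inflammatory cytokine and NF-kB target genes passed, none had an unadjusted p under 0.05, and the median was 0.06. Il1b differed by -0.13 (adjusted p = 0.93), and Acod1, the enzyme that makes itaconate, by 0.61 (adjusted p = 0.81). Of 30 genes of alternative activation and repair, 0 passed, with a median of 0.14. Arg1, the arginase of alternatively activated macrophages, read 8.10 and 8.04 in DTR+ arrays, against 7.58, 7.89, 6.84 and 8.55 in DTR- arrays (0.36, adjusted p = 0.94). Nos2, which makes nitric oxide from the same amino acid, differed by 0.08 (adjusted p = 0.94), the lectin Clec10a by 0.59 (adjusted p = 0.74), and Il10 by 0.29 (adjusted p = 0.88).

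Of 31 subunits of oxidative phosphorylation, 4 lay above 0 (59.4% of all genes did), with a median of -0.14, and none passed. Leaving out DTR+ replicate 1 gave a median of -0.36, and leaving out DTR+ replicate 5 gave -0.01. Ndufa5 of complex I read 7.62 in both DTR+ arrays, against 8.14, 7.81, 7.90 and 7.69 in DTR- arrays (-0.26, adjusted p = 0.76). Atp5c1 of the ATP synthase differed by -0.41 (adjusted p = 0.76). The median was 0.06 over 20 genes of glycolysis and hypoxia, -0.01 over 24 lysosomal genes and -0.09 over 34 cell cycle genes, with 0 called in each. For the cell cycle list these 2 omissions gave medians of -0.30 and 0.16, so its direction rests on 1 array. Of 12 MAPK phosphatases Dusp10 rose, and of 8 SOCS genes Socs1 rose (0.0542% of all genes did). Of 9 chemokine receptors and 23 immediate-early and heat-shock genes, 0 passed, with medians of 0.01 and 0.09. Of 17 BATF, IRF and STAT factors Batf2 rose, 13 lay above 0 (59.4% of all genes did) and the median was 0.24.

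**Figure D4:**
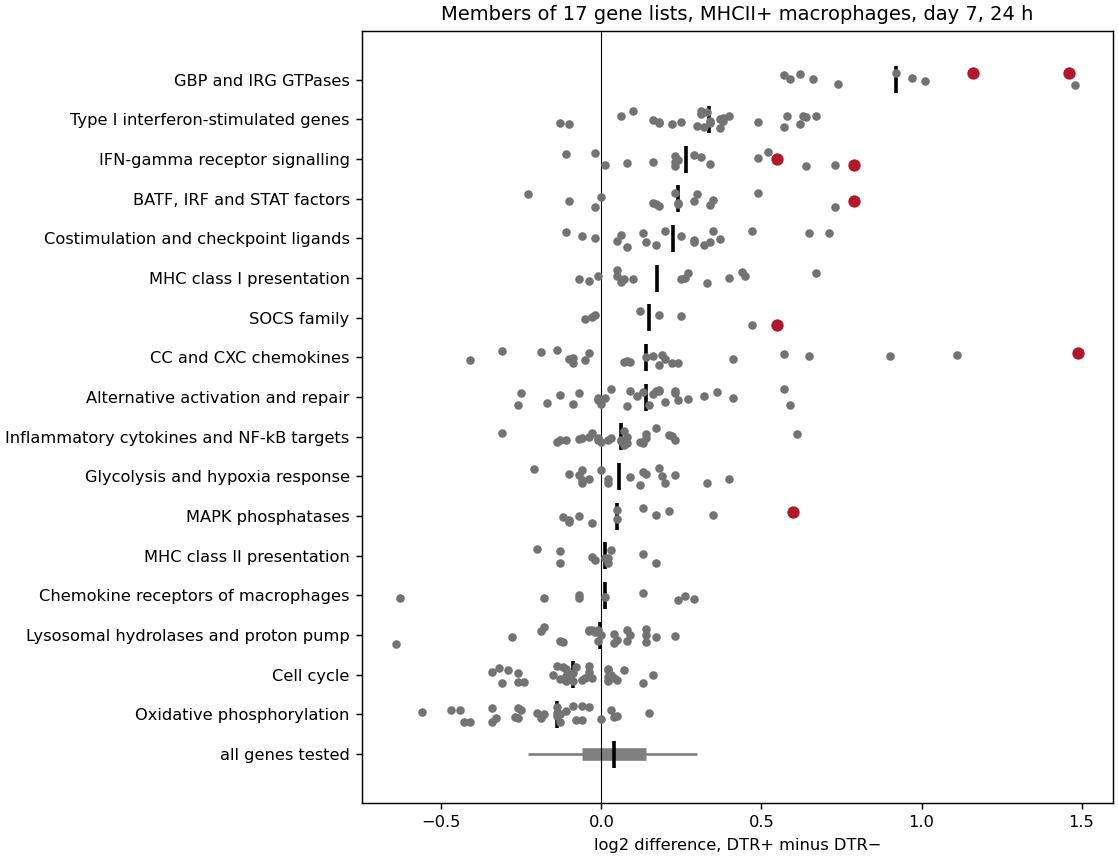
Log2 difference between DTR+ and DTR- MHCII+ arrays at 24 h (horizontal axis) for the tested members of 17 gene lists (rows), with genes past the threshold in red and list medians as black bars. The last row gives all 11074 genes: the thick bar spans the 25th to 75th percentile (-0.06 to 0.14), the thin line the 5th to 95th (-0.23 to 0.30). Each GTPase gene lies beyond that 95th percentile, and the oxidative phosphorylation list has the lowest median of the 17 with all 6 arrays.

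The rule for the largest separated differences named 9 lower genes, none of which passed. The largest was that of Erh, a small conserved factor of RNA processing, at 8.91 and 8.76 in DTR+ arrays, against 9.88, 9.15, 10.04 and 9.15 in DTR- arrays (-0.73, adjusted p = 0.54). Cd200, whose product restrains myeloid cells through its receptor, read 7.36 and 7.39 in DTR+ arrays, against 7.72, 7.93, 7.72 and 7.97 in DTR- arrays (-0.45, adjusted p = 0.74). The prefoldin subunit Pfdn4 differed by -0.45 (adjusted p = 0.38) and Bambi, a decoy receptor of the TGF-beta family, by -0.36 (adjusted p = 0.75). The other 5 were Cxcl1, Pak1ip1 (-0.38), Eloc (-0.33), Eef1d (-0.32) and Ap3s1 (-0.31).

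No marker of another cell type passed in this comparison. DTR- replicate 3 stood apart in genes of neutrophil granules: Ngp read 4.62 and 5.18 in DTR+ arrays, against 5.01, 4.88, 9.12 and 5.12 in DTR- arrays. The mean level of 14 neutrophil genes was 6.84 and 6.85 in DTR+ arrays and 6.78 to 7.86 in DTR- arrays, and that of 9 eosinophil genes 6.77 and 6.89 in DTR+ arrays and 6.63 to 7.44 in DTR- arrays. DTR+ replicate 1 had Cpa3, a mast cell protease, at 7.4, with 5.65 in the other DTR+ array and 5.33 to 5.64 in DTR- arrays. The protease Mcpt4 read 5.89 there and 5.28 in the other DTR+ array. Cma1 (5.89), Tpsb2 (6.78), Fcer1a (4.65) and Ms4a2 (4.98) lay within the DTR- range in that replicate. The 7 mast cell genes averaged 6.12 in DTR+ replicate 1, 5.83 in DTR+ replicate 5 and 5.67 to 5.94 in DTR- arrays. T cell genes averaged 7.80 and 7.83 in DTR+ arrays and 7.80 to 8.05 in DTR- arrays. Natural killer genes averaged 6.27 and 6.54 in DTR+ arrays and 6.22 to 6.68 in DTR- arrays. Of 10 fibroblast genes 1 lay above 0 (59.4% of all genes did), with a median of -0.25. Fibroblast mean levels were 8.02 and 8.42 in DTR+ arrays and 8.11 to 8.67 in DTR- arrays. Endothelial genes averaged 7.56 and 7.69 in DTR+ arrays and 7.45 to 7.55 in DTR- arrays, without overlap, and 3 of 8 tested were higher at an unadjusted p under 0.05 (5.11% of all genes), among them Eng (0.53, adjusted p = 0.14) and Flt1 (0.42, adjusted p = 0.25). The part of these cells in the genes that rose was not tested.

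MHCII- macrophages of the same 24 h set showed 1 gene past the threshold (0.00903% of those tested), named here after its values were seen: BC023105, at 2.32 ± 0.40 (adjusted p = 0.020). In MHCII+ macrophages it read 8.27 and 8.13 in DTR+ arrays, against 6.87, 6.44, 6.48 and 5.74 in DTR- arrays. The difference there was 1.82 ± 0.42 and did not pass (adjusted p = 0.14). All of these DTR- readings lay under the brightness filter, so the size of this difference rests partly on values near background. The readings of BC023105 in MHCII- arrays are not given here, so both of its tests call for caution. The difference between the MHCII+ and the MHCII- effects passed for 0 genes in limma, with 1012 at an unadjusted p under 0.05 (9.14%). The GTPases had a median of 0.92 in MHCII+ and 0.66 in MHCII- macrophages, with all 11 above 0 in each (against 59.4% and 40.2% of all genes) and 0 of 11 differences of effects past the threshold. Iigp1 differed by 1.46 in MHCII+ and 1.35 in MHCII- cells, and Gbp4 by 1.48 in MHCII+ and 1.45 in MHCII- cells. In MHCII- cells the Gbp4 groups overlapped, with 9.87, 9.91 and 8.13 in DTR+ arrays, against 7.66, 8.33 and 7.55 in DTR- arrays. Those of Iigp1 did not overlap.

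Ccl17 differed by 1.49 in MHCII+ and by -0.27 in MHCII- macrophages, where it read 6.96, 7.06 and 7.81 in DTR+ arrays, against 7.54, 8.01 and 7.08 in DTR- arrays. The difference of effects was 1.76 ± 0.35 and did not pass (adjusted p = 0.22). With a random block for same-numbered samples it was 1.90 and passed (adjusted p = 0.014). It also passed without DTR+ MHCII+ replicate 5 (2.29), without DTR+ MHCII- replicate 3 (2.03) and without DTR- MHCII- replicate 3 (1.99). Socs1 differed by 0.55 in MHCII+ and 0.02 in MHCII- cells, and its difference of effects did not pass (0.53, adjusted p = 0.52).

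After 8 h of DT, 54 genes passed in MHCII+ macrophages (0.488%), 43 higher (0.388%) and 11 lower (0.0993%). The difference between the 24 h and the 8 h effects passed for 0 genes in limma, with 1319 at an unadjusted p under 0.05 (11.9%). Batf2 differed by 0.79 at 24 h and by 0.04 at 8 h, a difference of effects of 0.75 ± 0.15 (adjusted p = 0.065). Its arrays at 8 h read 8.39, 8.51 and 8.58 in DTR+ and 8.56, 8.44 and 8.38 in DTR- samples, with full overlap. The GTPase median was 0.92 at 24 h and 0.11 at 8 h, and none of the 11 passed at 8 h. Dusp10 rose at 8 h too, by 0.50 (adjusted p = 0.036). Of the 28 cytokine and NF-kB target genes, 5 rose at 8 h (0.388% of all genes did), with a median of 0.06 at 24 h and 0.25 at 8 h. Il10 rose at 8 h by 1.42 (adjusted p = 0.0024), Cxcl1 by 0.60 (adjusted p = 0.040) and Il1b by 0.67 (adjusted p = 0.038), and none of these 3 passed at 24 h or in the difference of effects. The difference of effects for Cxcl1 was -1.02 (adjusted p = 0.065), and it passed with quantile normalization (-1.13, adjusted p = 0.036) and without DTR- replicate 2 of the 8 h set (-1.14, adjusted p = 0.049). Without DTR+ replicate 3 of the 8 h set, 55 differences of effects passed, and 2 each without 24 h DTR+ replicate 5 and without DTR- replicate 2 of the 8 h set.

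**Figure D5:**
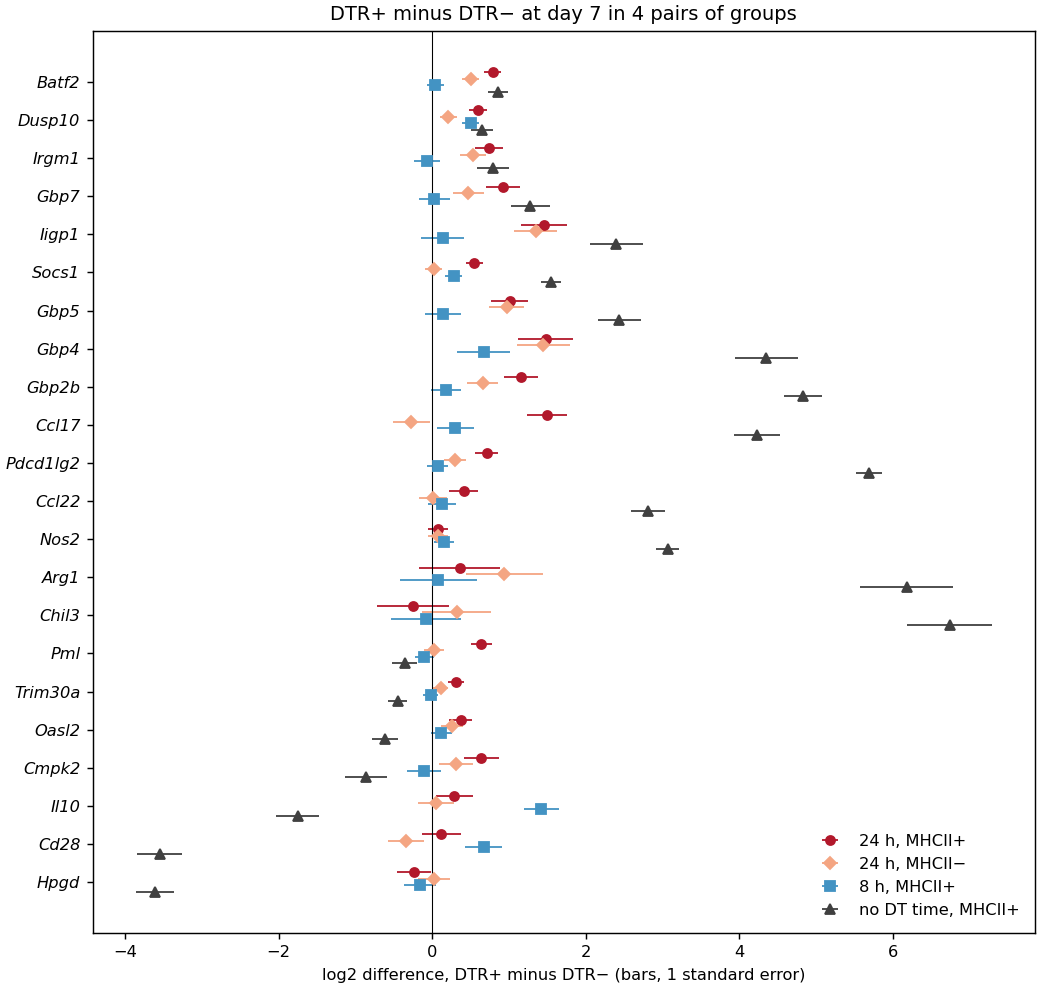
Log2 difference between DTR+ and DTR- arrays at day 7 (horizontal axis, bars 1 standard error) for 22 genes (rows) in 4 pairs of groups: 24 h MHCII+ (circles), 24 h MHCII- (diamonds), 8 h MHCII+ (squares) and MHCII+ with no DT time (triangles). The circle and triangle lie close together for Batf2 and Dusp10, while the triangle lies far to the right of the circle for Ccl17, Gbp2b, Arg1 and Chil3.

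In the untimed day 7 set, 1276 genes passed in MHCII+ macrophages (11.5%), 589 higher (5.32%) and 687 lower (6.20%). The difference between the 24 h and the untimed effects passed for 833 genes (7.52%), with 541 more positive (4.89%) and 292 more negative (2.64%) at 24 h. All 6 genes that rose at 24 h also rose in the untimed set. Batf2 differed by 0.79 at 24 h and 0.86 untimed, with a difference of effects of -0.08 ± 0.17 (adjusted p = 0.89). Dusp10 differed by 0.60 at 24 h and 0.65 untimed (-0.05 ± 0.19, adjusted p = 0.94), and Iigp1 by 1.46 at 24 h and 2.40 untimed (-0.94 ± 0.46, adjusted p = 0.24).

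The other 3 rose less at 24 h than in the untimed set. Ccl17 read 12.49 and 12.28 in untimed DTR+ arrays, against 7.92 and 8.39 in untimed DTR- arrays (difference of effects -2.74, adjusted p = 9e-06). Gbp2b read 12.61 and 12.22 in untimed DTR+ arrays, against 7.63 and 7.54 in untimed DTR- arrays (-3.67, adjusted p = 1.3e-09). Socs1 read 10.29 and 10.17 in untimed DTR+ arrays, against 8.69 and 8.68 in untimed DTR- arrays (-0.99, adjusted p = 0.00015). For all 3 the untimed DTR+ arrays exceeded both 24 h DTR+ arrays, and for Ccl17 and Socs1 the untimed DTR- arrays were also lower than all 24 h DTR- arrays. The GTPases had a median of 0.92 at 24 h and 2.40 untimed. In the untimed set 11 of 11 rose (5.32% of all genes did). Past the threshold, 5 of 11 effects were smaller at 24 h (2.64% of all genes): Gbp2b, Gbp4 (-2.87), Gbp5 (-1.43), Gbp8 (-2.42) and Gbp11 (-1.81).

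For the 28 genes of the type I interferon response, the median was 0.33 at 24 h and -0.59 untimed. Untimed, 9 of 28 fell (6.20% of all genes did) and 0 rose (5.32% of all genes did). Of the 28 differences of effects, 8 passed, all 8 more positive at 24 h (4.89% of all genes were). Cmpk2 differed by 0.64 at 24 h without passing and fell by 0.86 untimed (difference of effects 1.5, adjusted p = 0.0051). Oasl2 differed by 0.37 at 24 h and fell by 0.61 untimed (0.99, adjusted p = 0.0042), and Trim30a differed by 0.31 at 24 h and fell by 0.45 untimed (0.76, adjusted p = 0.0014). Pml, of the IFN-g signalling list, differed by 0.64 at 24 h and by -0.36 untimed, and passed neither test, while the difference did (1.00, adjusted p = 0.0019).

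Several genes with the largest changes in the untimed set did not pass at 24 h. Chil3 (Ym1), a chitinase-like protein of alternative activation, read 6.01 and 5.39 in DTR+ arrays at 24 h, against 5.74, 6.26, 5.97 and 5.83 in DTR- arrays. In the untimed set it read 12.74 and 11.62 in DTR+ arrays, against 5.27 and 5.61 in DTR- arrays, a difference of effects of -6.99. The 24 h groups overlapped, while the untimed groups were far apart. Arg1 followed with -5.82 (adjusted p = 6.1e-06), Pdcd1lg2 with -4.98, the eosinophil-type ribonuclease Rnase2a with -4.63 (adjusted p = 4e-06) and Apol7c with -4.59. Nos2 rose by 3.07 untimed and differed by 0.08 at 24 h, a difference of -2.99. Chil3, Pdcd1lg2, Apol7c and Nos2 had means under the filter in 3 of the 4 groups compared, all but the untimed DTR+ group, so their differences are given without a test, and their low readings lie near background. Ccl22 rose by 2.81 untimed and differed by 0.41 at 24 h (-2.40, adjusted p = 7.5e-07). Of the glycolysis and hypoxia genes 19 of 20 rose untimed (5.32% of all genes did), with a median of 0.06 at 24 h and 1.31 untimed. Past the threshold, 15 of 20 effects were smaller at 24 h (2.64% of all genes). Pfkp, a phosphofructokinase, differed by 0.40 at 24 h and rose by 2.00 untimed.

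The 5 genes with the largest differences in the other direction fell in the untimed set and did not pass at 24 h. The costimulatory receptor gene Cd28 read 9.4 and 9.28 in DTR+ arrays at 24 h, against 9.25, 9.39, 8.97 and 9.25 in DTR- arrays. Untimed, it read 6.44 and 6.20 in DTR+ arrays, against 9.96 and 9.79 in DTR- arrays (difference of effects 3.68, adjusted p = 3.4e-08). Cd209f, a C-type lectin of the DC-SIGN family, gave 3.68 (adjusted p = 0.00046), the endothelin receptor Ednrb 3.43 (adjusted p = 1.2e-06), the prostaglandin-degrading enzyme Hpgd 3.37 (adjusted p = 1.2e-08) and the Ras activator Rasgrp3 3.25 (adjusted p = 1e-05). Il10 fell by 1.75 untimed and differed by 0.29 at 24 h (2.05, adjusted p = 0.00027). The count of 833 fell to 399 without untimed DTR+ replicate 1, to 445 and 537 without untimed DTR- replicates 1 and 2, and to 523 without 24 h DTR+ replicate 5.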

How the data were processed

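RNA of sorted macrophages was measured with 1-colour whole-transcript Affymetrix arrays for mouse. The values are linear intensities that the authors deposited in one table of 45 arrays, with RMA run in Affymetrix Power Tools, per the submitters' processing notes, which name no version. RMA corrects background, normalizes across arrays and summarises probes, and can narrow differences of dim genes. The number of arrays limits the precision. Array medians were 187.4 to 201.3 over the 6 arrays.

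The deposited intensities were turned to log2. Of 24922 probe sets, 21425 had 1 symbol, 1399 several and 2098 none listed in the platform annotation; the probe set with the highest mean stood for a gene (19752 genes). Genes with a mean of at least log2 7.57, the median of all values, in 1 or more of 18 groups were tested (11074). limma 3.58.1 in R 4.3.3 fitted 18 group means over 45 arrays (27 residual degrees of freedom) with an intensity trend, and p-values were adjusted by Benjamini-Hochberg over all tested genes. On simulated data of the 24 h comparison over 11074 genes, 47 of 50 genes raised by 1 on the log2 scale were called, and 11 of 10874 unchanged genes. The simulated arrays had each gene's spread over all 45 arrays. The 24 h set varied more (residual SD 0.24, against 0.19 over all arrays), so the share called does not carry over to it.

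The members and gene lists were chosen with earlier results of these data known, so list counts carry no test. Genes were named if they passed, if they were among the 10 largest separated differences in each direction at an unadjusted p under 0.01 (predicted genes only counted), if they had 1 of the 4 smallest p of a list, if they belonged to a chosen panel, or if they had 1 of the 5 largest differences of effects in each direction. Replicate numbers were not taken as pairs. Deviations of same-numbered DTR- MHCII+ and MHCII- samples correlated at 0.36, 0.15 and -0.02, and those of the 1 same-numbered DTR+ pair at 0.53. Differently numbered samples correlated at -0.47 to 0.54 for DTR- and at -0.59 to 0.59 for DTR+. These values therefore do not settle whether same-numbered samples are pairs. The correlation estimated within replicate blocks over the series was 0.39. Alternatives covered the filter, offset, normalization, trend, weights, probe-set choice, arrays fitted, a replicate block and each array left out.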

Additional observations from a re-analysis of the deposited data

Results flagged for a closer look

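Among the 4 DTR- MHCII+ arrays at 24 h, 3 of the 66 genes checked had 1 array far from the other 3: Ccl17 in replicate 4 (9.20, low), Clec9a in replicate 2 (8.12, high) and Ngp, a neutrophil granule gene, in replicate 3 (9.12, high). A gap of this size comes up in about 1 in 20 groups of independent, normally spread values. The 66 genes were selected and can vary together, so that rate gives no expected number for them. Replicate 3 also had the highest mean of the 14 neutrophil genes, at 7.86. For replicates 1, 2 and 4 this mean was 6.79, 6.78 and 6.89. The cause of the 3 gaps was not tested.

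The threshold (limma, adjusted p under 0.05 over all genes) was passed by the difference between 24 h and untimed effects for 34 named genes. This count includes Chil3, Pdcd1lg2, Apol7c and Nos2, for which it is no valid test. Of the 4 groups compared, they had means above the brightness filter in the untimed DTR+ group alone. Their differences are therefore values without a test. Among the GTPases and the genes past the threshold at 24 h, the effect was more negative at 24 h for Ccl17 (-2.74), Gbp2b (-3.67), Socs1 (-0.99), Gbp4 (-2.87), Gbp5 (-1.43), Gbp8 (-2.42) and Gbp11 (-1.81), of which the first 3 rose at 24 h. Among immune ligands and receptors it was more negative for Clec9a (-2.41), Pdcd1lg2 (-4.98), Cd274 (-1.56) and Ccl22 (-2.40). Among enzymes and secreted proteins it was more negative for Nos2 (-2.99), Arg1 (-5.82), Acod1 (-2.54), Chil3 (-6.99), Rnase2a (-4.63), Apol7c (-4.59) and Pfkp (-1.61). The same held for Flt1 (-3.29), Erh (-1.47), Pfdn4 (-0.62), Atp5c1 (-0.94) and Ndufa5 (-0.52). It was more positive at 24 h for the interferon-response genes Pml (1.00), Trim30a (0.76), Oasl2 (0.99) and Cmpk2 (1.5). The same held for Il10 (2.05), Clec10a (1.02), Cd209f (3.68), Cd28 (3.68), Ednrb (3.43), Hpgd (3.37) and Rasgrp3 (3.25). Age and DT time differ between the 2 sets and cannot be told apart.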

How the results depend on the processing

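The count of 6 genes at 24 h changed with the processing: 3 passed with no filter on dim genes, 2 with quantile normalization and 2 with arrays centred on their medians (Batf2 and Ccl17 both times), 1 with array quality weights (Batf2), and 0 with a spread of its own for each set, with only the arrays compared and with the 12 arrays of the 24 h set. It was 9 with 50 added to the intensities, 9 with the mean of a gene's probe sets and 7 with no intensity trend, the 6 included each time. Leaving out 1 array gave 0 to 10. No paired analysis was made, because DTR+ and DTR- arrays come from different mice and replicate numbers give no pairs between them. A random replicate block gave 7 genes, adding Pdcd1lg2, and 1 difference between MHCII+ and MHCII- effects in place of 0 (Ccl17, 1.90), and leaving out 1 array gave 0 to 1. For the difference between 24 h and 8 h effects, quantile normalization gave 5 genes and the arrays compared alone 1, in place of 0, and leaving out 1 array gave 0 to 55. For the difference between 24 h and untimed effects, the arrays compared alone gave 505 genes in place of 833, and leaving out 1 array gave 399 to 1000. Array quality weights gave 1155 and a spread for each set 1041. The sign at 24 h turned for 5 genes with 1 array left out, whose values then spanned -0.12 (without DTR+ replicate 5) to 0.28 for Nos2, -0.56 to 0.06 (without DTR+ replicate 5) for Chil3, -0.81 (without DTR+ replicate 1) to 1.19 for Cd209f, which was -0.02 without DTR- replicate 4, -0.17 to 0.66 for Ednrb and -0.06 to 1.58 for Rnase2a, the last 2 lowest without DTR+ replicate 1. None of these passed at 24 h. With 1 array left out, the list medians of class II genes (-0.01 to 0.02), chemokine receptors (-0.04 to 0.17), cytokines and NF-kB targets (-0.03 to 0.19), MAPK phosphatases (-0.01 to 0.10), glycolysis (-0.01 to 0.18), lysosomal genes (-0.04 to 0.06) and the cell cycle (-0.30 to 0.16) also lay on both sides of 0. The smaller fits hold fewer arrays, and the cause of these changes was not tested. With 2 DTR+ arrays, differences near the noise of the 24 h set could not be resolved, and dim genes sit near background.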
